A study of Mus musculus with 12 samples.

Results

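The miR-378 family of the mouse comprises 4 annotated microRNA (miRNA) genes, Mir378a, Mir378b, Mir378c and Mir378d, out of 1087 miRNA names that were matched against 12 small RNA libraries. Its reads were those whose insert sequence, called a tag, matched 1 or more of the 4 hairpins exactly over its full length. The family was selected on its read counts and shared tags in these same libraries. Its level and the shares of its members are therefore given as descriptions, and no difference between groups entered the rule. There were 59 tags with 577640 reads, and no read was shared with another miRNA. The libraries were made from the hippocampus of individual C57BL/6NCrl mice, with 2 untreated mice and 2 mice per time point after electroconvulsive shock (ECS), which evokes a seizure and was used as a model of strong neuronal activity. The time points were 0.5 h, 1 h, 3 h, 6 h and 24 h. The mice carried no transgene and the untreated mice received no shock. Libraries with the suffix -1 formed a first time course and those with the suffix -2 a second, with 1 library per time point in each. The study's listings give the pair of untreated libraries in both orders. The labels' numbers were kept here, as NT-1 and NT-2. Reads matching an annotated miRNA hairpin made up 29.1% of accepted reads in NT-1, against 10.1% to 32.7% in the other libraries with the suffix -1, and 56.5% in NT-2, against 50.9% to 69.6% in the others with the suffix -2. This measure thus runs as the labels say. With the untreated pair exchanged, no measure of the family that passed between the time courses passed after adjustment. That outcome was fixed in advance and says nothing about the order. Each such measure differed in the same direction in all 6 pairs of libraries. The exchange reverses 1 pair, after which the permutation p cannot be under 0.05.

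Mature miRNAs guide Argonaute proteins to target mRNAs, mainly through the seed, bases 2 to 8 from the 5′ end, and reduce translation and stability of those mRNAs. miR-378a is carried in an intron of Ppargc1b, which encodes PGC-1β, a coactivator of mitochondrial and oxidative metabolism genes, and is best known from muscle, heart, liver and fat. The other members are near copies of its mature sequence at other loci, so that short reads may match several of them.

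The RefSeq mature sequences (GRCm38.p6) of the 3 minor members are shown because their similarity sets which reads can be assigned to a gene. Seed bases are in capitals.
mmu-miR-378b: cUGGACUUggagucagaaga
mmu-miR-378c: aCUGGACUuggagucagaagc
mmu-miR-378d: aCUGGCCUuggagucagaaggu
They lie at chr11:88352839-88352858 (plus strand), chr14:46954905-46954925 (minus strand) and chr10:126710355-126710376 (minus strand). The annotated miR-378b begins 1 base later than the others, so its seed is in a different register from that of miR-378c, and the seed of miR-378d has a sequence of its own.

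In the GENCODE annotation (GRCm38), the 66-nt hairpin of Mir378a lies on chromosome 18 from 61397835 to 61397900, minus strand, in an intron of Ppargc1b and on the strand of that gene. A predicted miRNA gene, Gm25301, lies opposite it. The 92-nt hairpin of Mir378b (chromosome 11, 88352773 to 88352864, plus strand) lies in an intron of Msi2, an RNA-binding protein gene, and the 99-nt hairpin of Mir378c (chromosome 14, 46954830 to 46954928, minus strand) in an intron of Samd4. Both are on the strand opposite to the surrounding gene. No annotated gene surrounds the 110-nt hairpin of Mir378d (chromosome 10, 126710282 to 126710391, minus strand). The mature sequence lies on the 3′ side of the hairpin in miR-378a and miR-378b and on the 5′ side in miR-378c and miR-378d. It is called the mature side below.

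Nearly all reads that could be assigned to a gene belonged to miR-378a. Reads that matched miR-378a alone numbered 267298, or 46.3% of the family for its mature side. Reads that matched miR-378a and miR-378c equally numbered 303176 (52.5%), and another 4104 (0.710%) matched miR-378a, miR-378b and miR-378c. No reads were divided between members. Only 3062 reads, 0.530% of the family, matched miR-378b, miR-378c or miR-378d alone, and these were 1249, 749 and 1064 reads, respectively, each found in all 12 libraries. Counted with shared tags, miR-378a could account for 574578 reads, miR-378c for 308029, miR-378b for 5353 and miR-378d for 1064.

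The mature sequences of miR-378a and miR-378c share their first 20 bases, and those of miR-378a, miR-378b and miR-378c share 19 bases from the second position on. The most frequent tag of the family was this 20-nt sequence of miR-378a and miR-378c, with 283805 reads (49.1%). The 21-nt and 22-nt tags of miR-378a alone came next, with 114297 (19.8%) and 112841 reads (19.5%). They were followed by miR-378a tags of 20 and 21 nt that began 1 base later, with 23486 (4.07%) and 15908 reads (2.75%).

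The opposite side of the hairpins was almost unread. It gave 11 reads, all of miR-378a and in 4 of 12 libraries, or 0.00190% of the family. The opposite sides of miR-378b, miR-378c and miR-378d had 0 reads each, which allows up to 3 reads in all libraries by counting error alone.

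The reads assigned to the minor members were few beside tags that differ from the same stretch at the same base but match no member. The most frequent tags of a minor member alone are given below with the seed register of that member in capitals, as DNA.
miR-378b, 905 reads: cTGGACTTggagtcagaaga
miR-378d, 752 reads: aCTGGCCTtggagtcagaag
miR-378c, 354 reads: aCTGGACTtggagtcagaagc
For miR-378c, the tag was compared with the other bases that can follow the 20-nt stretch. The 2 tags that match no member, ending in T and A, had 3915 and 11491 reads. Both exceeded or equalled the miR-378c tag in 12 of 12 libraries. The miR-378a tag at this base had 114297 reads. After the 19-nt stretch, the miR-378c tag had 224 reads. The tag that matches no member, ending in T, had 995 and was as high or higher in 12 of 12 libraries. These counts do not set miR-378c apart from unassigned variants of the abundant sequence that end in A or T. No unmatched tag with another base exists at these positions.

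For miR-378b, the tag of 905 reads stood beside the same unmatched tag with 995 reads, which was as high or higher in 7 of 12 libraries. At the base before the stretch, the miR-378b tag had 233 reads and the 2 unmatched tags 1331 and 1526, both as high or higher in 12 of 12 libraries. For miR-378d, the tag of 752 reads stood beside unmatched tags with 793 and 3230 reads at the base that sets it apart. At least 1 of them was as high or higher in 12 of 12 libraries, and both were in 7. The tags were not aligned to the genome, so an unmatched tag may come from another locus.

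**Figure D1:**
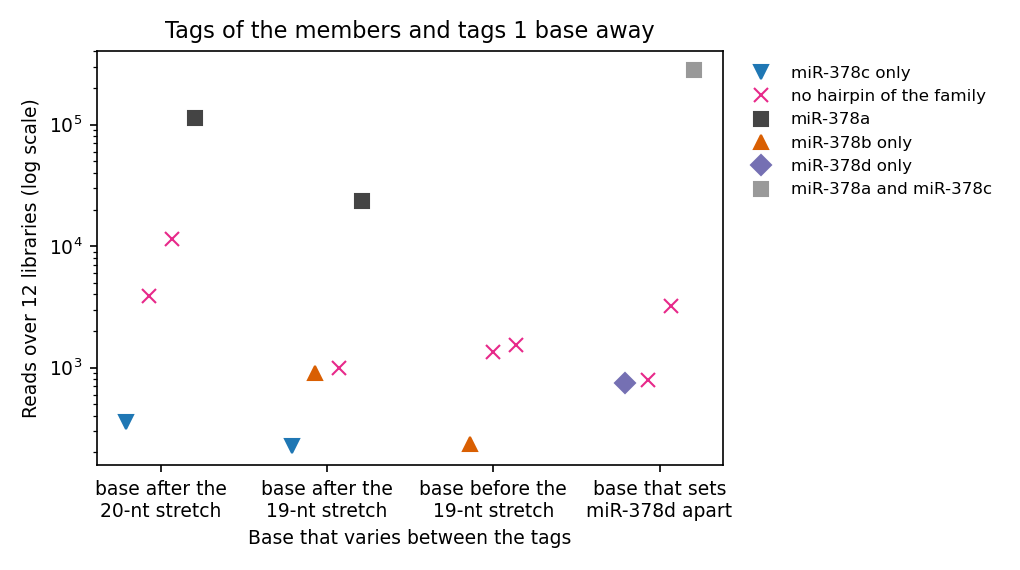
Reads over 12 libraries (vertical axis, log scale) of tags that differ from each other only at the base named on the horizontal axis. Each point is 1 tag and its symbol gives the members it matches. Tags of miR-378b, miR-378c or miR-378d alone had 224 to 905 reads, and each lay below the tag or tags that match no hairpin of the family (793 to 11491 reads).

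Tags 2 bases longer gave the same picture. Of 16 tags seen 2 bases past the 20-nt stretch, that of miR-378c ranked 9 with 123 reads. Of 14 tags seen 2 bases past the 19-nt stretch, those of miR-378b and miR-378c ranked 7 and 10, with 48 and 25 reads. The abundant variants included the 21-nt tag of miR-378a followed by another base. Its 21-nt tag was followed by the next base of the hairpin in 112841 reads (69.3%), by an A that is not in the hairpin in 39668 reads (24.3%) and by a T in 10163 reads (6.24%). The share with this A lay between 8.82% in 6h-1, where few reads reach this length, and 35.5% in 6h-2. The tags with this A, T or G match no hairpin of the family and were not counted in it. Whether these bases were added to miR-378a was not tested.

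The family was among the most abundant miRNAs in the reads of these libraries. As the undivided sum of its members, it ranked between 7 and 18 among miRNA arms in 11 libraries, and 40 in 6h-2. Shared tags of other miRNAs were divided among their arms, so other families were ranked in parts. Accepted reads ranged from 1897490 to 7657222 per library and reads matching an annotated hairpin (miRNA reads) from 439336 to 4282006. In the first time course, the family made up 1.28% of miRNA reads in NT-1, 2.46% in 0.5h-1, 2.18% in 1h-1, 2.90% in 3h-1, 2.56% in 6h-1 and 2.32% in 24h-1. In the second, it made up 2.80% in NT-2, 2.29% in 0.5h-2, 1.91% in 1h-2, 1.08% in 3h-2, 0.215% in 6h-2 and 1.30% in 24h-2. The untreated library was thus the lowest of the first time course and the highest of the second.

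**Figure D2:**
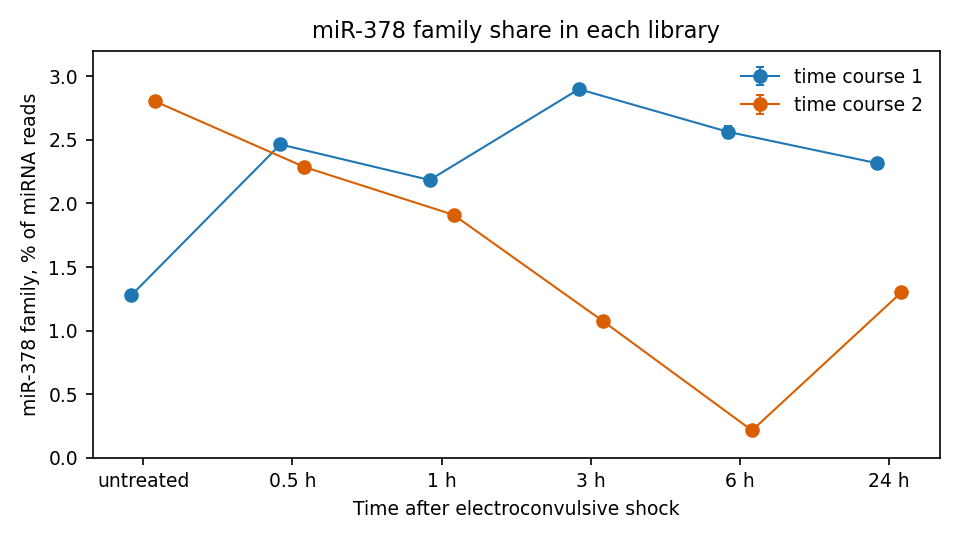
Share of miRNA reads that matched the miR-378 family (vertical axis, %) in each library, by time after ECS (horizontal axis, categories) and time course (colour). Bars are 95% Wilson intervals, which cover counting error only and are mostly smaller than the points. The first time course starts at its lowest value, 1.28%, and the second at its highest, 2.80%.

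The Wilson interval was 1.26% to 1.30% in NT-1, 2.79% to 2.82% in NT-2 and 0.207% to 0.223% in 6h-2. Counting error was therefore small beside the differences between libraries. The 6h-2 value rests on 2843 family reads and that of 6h-1 on 11257. NT-1 differed from the other libraries in read length, since 51.4% of its miRNA reads, and 63.0% of its family reads, were 18 or 19 nt long. In the other 11 libraries these shares were 0.910% to 16.9% and 0.746% to 13.3%. The part of short reads in the low value of NT-1 was not tested.

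The comparison of libraries after ECS with untreated libraries asked whether the family changed with seizure activity. No change was detected at any time. Abundance was compared as CPM (counts scaled to a common library size) after scaling with the trimmed mean of M-values (TMM), which sets libraries to a common level over all arms. Family CPM was 8639 in NT-1 and 30122 in NT-2, a wider gap than within any other pair but that at 6 h. In the first time course it was 22022 in 0.5h-1, 11791 in 1h-1, 34584 in 3h-1, 18568 in 6h-1 and 24336 in 24h-1. In the second it was 23853 in 0.5h-2, 18746 in 1h-2, 16351 in 3h-2, 3225 in 6h-2 and 17528 in 24h-2. All values after ECS lay between those of the untreated libraries except in 3h-1, above both, and 6h-2, below both.

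By the quasi-likelihood test of edgeR over 466 arms, the log2 fold change of the family against untreated was 0.24 at 0.5 h (SE 1.02, adjusted p = 0.979). It was −0.34 at 1 h (SE 1.02, adjusted p = 0.999) and 0.39 at 3 h (SE 1.02, adjusted p = 0.996). It was −0.83 at 6 h (SE 1.02, adjusted p = 0.994) and 0.11 at 24 h (SE 1.02, adjusted p = 0.986). The median over all arms was 0.17, −0.0099, 0.19, 0.0073 and 0.23 at these times, and 0.047, 0.27, −0.46, −0.31 and −0.16 with total miRNA counts as the scale. With that scale the family's change at 1, 3 and 24 h turned to 0.0054, −0.038 and −0.17. The tool called 0 of 466 arms at each time (0%), with 9, 2, 11, 9 and 7 arms at an unadjusted p under 0.05, and DESeq2 called 1, 0, 2, 0 and 0 arms. With SEs of this size, an interval of 2 SE around the 3 h value ran from −1.64 to 2.43, so changes of several-fold could not be told from none.

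**Figure D3:**
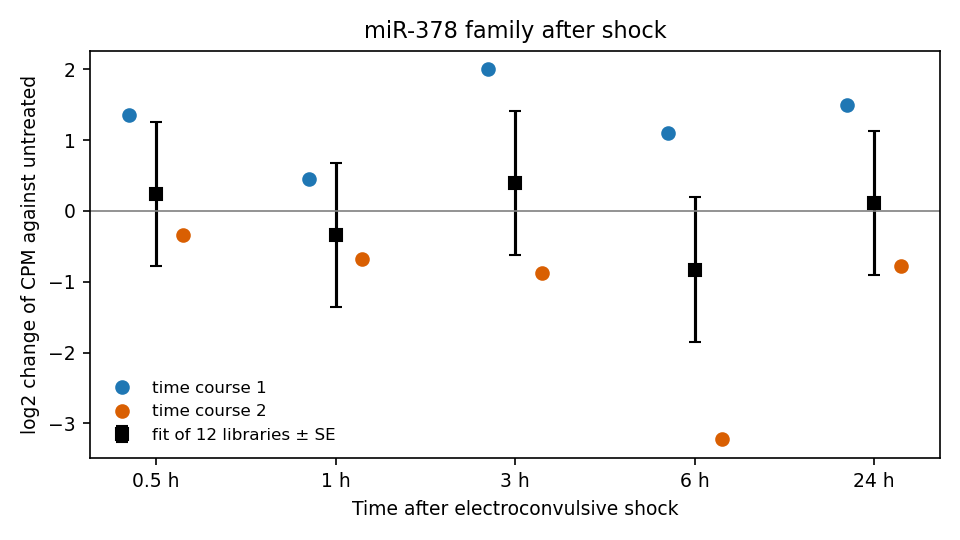
Log2 change of family CPM against untreated (vertical axis) at each time after ECS (horizontal axis, categories). Squares are the edgeR estimates from 12 libraries with their SE (about 1.02), and circles the change of a library against the untreated library of its own time course. All 5 circles of the first time course lie above 0 (0.45 to 2.00) and all 5 of the second below (−3.22 to −0.34).

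The direction of these values depended on which untreated library was used. Against NT-1, the libraries of the first time course differed by 1.35, 0.45, 2.00, 1.10 and 1.49 on the log2 scale. Against NT-2, those of the second differed by −0.34, −0.68, −0.88, −3.22 and −0.78. When each library was instead set against the untreated library of the other time course, the first gave −0.45, −1.35, 0.20, −0.70 and −0.31 and the second 1.47, 1.12, 0.92, −1.42 and 1.02. The sign changed in 8 of 10 libraries, all but 3h-1 and 6h-2. With 1 library per time course at each time, a difference between the time courses in their response could not be tested.

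Kept apart by the members they match, the reads of the mature side formed 6 sets, and none of the 30 tests against untreated (6 sets at 5 times) passed with edgeR over 471 arms and sets. Their log2 fold changes ranged from −2.90 to 1.77, with SEs of 1.08 to 1.58. The lowest unadjusted p was 0.0662 (adjusted p = 0.994), for reads of miR-378a alone at 6 h, at −2.60 (SE 1.30). With the time course as a block, again 0 of 30 passed, and 1 had an unadjusted p under 0.05. DESeq2 also called 0 of 30.

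The 2 time courses were compared because they were made one after the other. For the family as a whole, the edgeR test detected no difference between them. The log2 fold change of the second against the first was −0.23 (SE 0.54, adjusted p = 0.759), with an interval of 2 SE from −1.31 to 0.85. Of all 466 arms, 30.7% were called, 18.5% higher and 12.2% lower. The median over all arms was 0.26 with TMM. With total counts as the scale it was −0.29, the family stood at −0.77 (adjusted p = 0.270), and 34.3% of arms were called, 10.5% higher and 23.8% lower. The mean family share of miRNA reads was 2.28% ± 0.550 (SD, n = 6) for the first time course, above the 1.60% ± 0.927 of the second, and the second was lower at 5 of 6 time points. An exact permutation test over the 64 flips of libraries within time points gave p = 0.281 (0.338 after adjustment over 6 measures).

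The values of the sets of members, and the counts of sets called, are given as descriptions, because the family was selected on these sets. The log2 fold change of the second time course against the first was −2.50 (SE 0.55) for reads shared by miR-378a, miR-378b and miR-378c, and −1.72 (SE 0.59) for reads of miR-378b alone. It was 1.36 (SE 0.58) for miR-378a alone and −1.15 (SE 0.49) for reads shared by miR-378a and miR-378c. It was −1.56 (SE 0.79) for miR-378c and −1.13 (SE 0.69) for miR-378d. The call limit was met by 2 of 6 sets, both lower, and by 31.6% of all 471 arms and sets (14.4% lower, 17.2% higher). Sets that divide the reads of 1 family are not independent, so no conclusion is drawn from this count. With total counts as the scale, 3 sets met the call limit, beside 34.2% of arms and sets (24.2% lower, 9.98% higher). With the untreated pair exchanged, 0 of 6 sets did.

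The CPM of miR-378b alone was 40.1, 39.0, 82.1, 103, 139 and 89.2 in the first time course, from untreated to 24 h. In the second it was 38.0, 31.8, 21.03, 16.8, 8.82 and 28.2. The lowest value of the first time course, 39.0, lay just above the highest of the second, 38.0, and the untreated pair was close. The CPM of reads shared by the 3 members was 1191 in NT-1 and 126 to 315 in the other libraries of the first time course, against 22.04 to 76.98 in the second. NT-1, the library with the shortest reads, stood highest. These sets hold mostly tags of 19 and 20 nt, and the part of read length in these differences was not tested.

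As a share of family reads, miR-378a alone had a lowest, median and highest value of 5.83%, 14.3% and 37.3% in the first time course and 39.4%, 56.5% and 62.3% in the second. Reads of miR-378a and miR-378c were the reverse, at 61.3%, 82.9% and 89.4% in the first and 37.1%, 42.8% and 59.5% in the second. These 2 sets hold nearly all reads of the family, so a high share of 1 means a low share of the other, and they count as 1 observation. Reads of miR-378d alone made up 0.268% ± 0.0913 (SD, n = 6) of the mature side in the first and 0.130% ± 0.0546 in the second. The second was lower in all 6 pairs. In counts, miR-378d ranged from 1 read in 6h-2 to 180 in NT-2.

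The share of reads that matched 1 member only averaged 19.8% ± 13.4 (SD, n = 6) over the first time course and 55.1% ± 7.95 over the second, which was higher in all 6 pairs. A read that begins at the first base needs 21 nt to tell miR-378a from miR-378c, and longer reads were more frequent in the same libraries, but the part of read length in this share was not tested. Over all libraries, 53.6% of mature-side reads were 20 nt long, 22.6% were 21 nt and 19.6% were 22 nt. Reads of 21 nt or more made up 12.9% ± 14.2 (SD, n = 6) of the first time course and 52.2% ± 7.82 of the second, again higher in all 6 pairs (exact permutation test, p = 0.0312, adjusted p = 0.0469). Reads of this length match 1 member only, so this test is tied to the shared tags on which the family was selected. Its p is the smallest the 64 flips allow. The adjusted p is under 0.05 only because the shares of miR-378d and of reads of 1 member, on which the family was selected, have the same p. No conclusion is drawn from this call. With tags of 20 nt or more, or the first 18 nt, p was again 0.0312 and the adjusted p of the permutation test 0.0938.

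**Figure D4:**
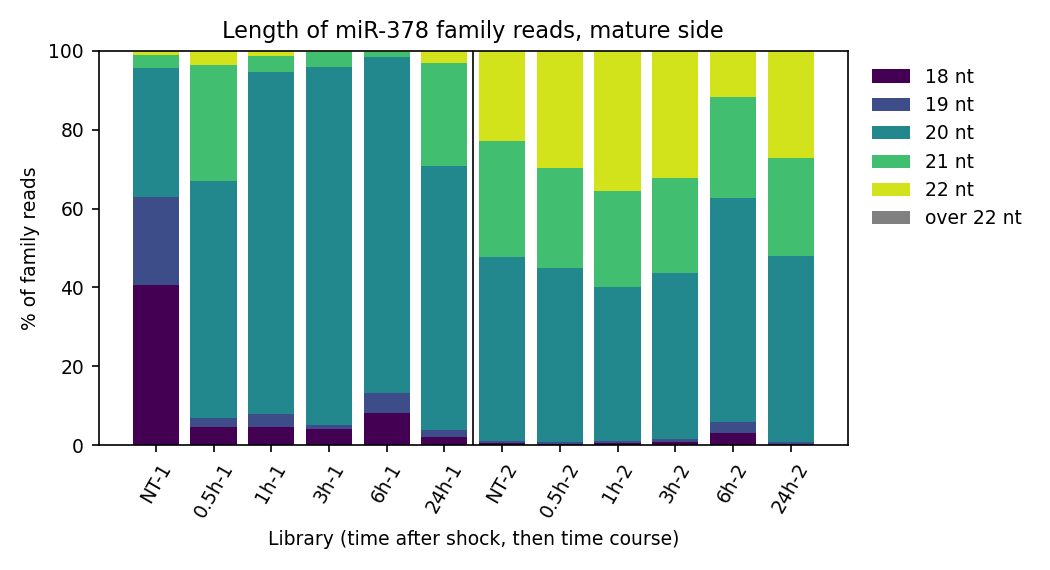
Length of mature-side reads of the miR-378 family in each library, as stacked shares of family reads (vertical axis, %), with the first time course on the left of the line and the second on the right. Reads of 22 nt make up 0.249% to 3.64% in the first time course and 11.7% to 35.4% in the second.

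The libraries of the first time course were not alike. Reads of 21 nt or more made up 33.1% in 0.5h-1 and 29.3% in 24h-1, but 1.49% to 5.28% in NT-1, 1h-1, 3h-1 and 6h-1. In NT-1, 40.6% of family reads were 18 nt long. In the second time course the share of 21 nt or more was lowest in 6h-2, at 37.4%, and lay between 52.0% and 59.9% in the other libraries. The range of 22-nt reads did not overlap between the time courses, but this share is not given for other arms.

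Most family reads began at the same base. This start held 92.1% of mature-side reads, and the start 1 base later 7.78%, which shifts the seed by 1 base to the register of the annotated miR-378b. The first start held 89.6% ± 2.08 (SD, n = 6) of reads of the first time course and 93.8% ± 1.13 of the second, higher in all 6 pairs (exact permutation test, p = 0.0312, adjusted p = 0.0469). This p too is the smallest the 64 flips allow. The adjusted p is under 0.05 only because the shares of miR-378d and of reads of 1 member have the same p. The family was selected on those shares, so no conclusion is drawn from this call. The call was lost with tags of 20 nt or more (permutation test, adjusted p = 0.141). It was also lost with the first 18 nt, where p was again 0.0312 (permutation test, adjusted p = 0.0938). The ranges were 86.7% to 92.0% and 91.8% to 95.04%, so that they overlapped slightly. Start and end were not independent. Among reads that ended at base 21, counted from the first start, the later start held 17.7% of reads over all libraries but 71.0% in 1h-1, 78.4% in 3h-1 and 87.7% in 6h-1. In the rest of the first time course it held 38.6% in NT-1, 14.3% in 0.5h-1 and 19.2% in 24h-1, and in the second 8.67% to 12.8%.

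The miRNA arms whose pattern was most like that of the family were found by Pearson's r of log2 CPM, centred within each time course, over 12 libraries and among 209 arms with at least 10 reads in every library. They were miR-383 5p (r = 0.887), miR-298 5p (0.857), miR-676 3p (0.839), miR-1224 5p (0.814) and miR-127 3p (0.793). The median over the 209 arms was 0.176. The 12 points share libraries and scaling, so these values are descriptions.

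The labelled tissue was checked with 5 brain-enriched miRNAs (miR-124, miR-9, miR-128, miR-137 and miR-138), all of them read. They made up 14.3% to 31.2% of miRNA reads in the first time course and 6.09% to 16.7% in the second. Of 7 muscle miRNAs, 6 had reads (miR-208a had 0), at a summed level of 0.260% to 1.10% and 0.773% to 1.70%. All 3 liver and gut miRNAs were read (0.712% to 5.35% and 0.333% to 1.02%). Of 5 blood miRNAs, 4 were (0.0333% to 0.199% and 0.0168% to 0.0260%, miR-486b at 0), and so were 4 of 5 miRNAs of choroid plexus and epithelium (0.00233% to 0.00770% and 0.00462% to 0.0385%, miR-211 at 0). The lowest muscle level was that of NT-1 and the highest that of NT-2, and the family share was also higher in NT-2. Also lower in NT-1 than in NT-2 were liver and gut (0.712% and 1.02%) and choroid plexus and epithelium (0.00768% and 0.0107%). Brain (31.2% and 10.9%) and blood (0.199% and 0.0190%) were higher in NT-1. In 6h-2, where the family share was lowest, muscle stood at 1.05%. The part of these lists in the family's differences was not tested. In these bulk samples, fewer cells of a type and less RNA per cell cannot be told apart.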

How the data were processed

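Gel-selected small RNA of the hippocampus, 1 mouse per library, was sequenced by the authors on an Illumina Genome Analyzer IIx. They removed adapters with the miR-Intess pipeline (version not given in the sources used here) and deposited, for each of 12 libraries, every distinct tag of 18 to 34 nt with its count. These deposited counts were neither aligned nor normalized. PCR copies cannot be told from molecules, so intervals and limits cover counting error only.

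Tags were matched exactly, over their full length, to the sense strand of 1174 GENCODE M21 hairpins (GRCm38) whose symbol starts with Mir. Tags of the family were kept apart by the members they match and never divided. A tag was put on the 5′ or 3′ arm by the middle of the hairpin, and the arm with the mature sequence was taken as the mature side of each member. Mature sequences were matched by name in RefSeq (GRCm38.p6) for 3 of 4 members. Arms reaching 10 counts in 2 or more libraries were tested with edgeR 4.0.16 (TMM, quasi-likelihood test, Benjamini-Hochberg over all arms, called at an adjusted p under 0.05) in R 4.3.3, on all 12 libraries with group means, or with time point as a covariate for the time courses. An SE is the log2 fold change divided by the root of its F statistic. The 6 measures of shares were tested with an exact two-sided permutation of libraries within time points (64 flips). The fit was tested on simulated data. Alternatives were total counts, DESeq2 size factors, DESeq2 1.42.0, no filter, tags of 20 nt or more, a match of the first 18 nt, a replicate block, the compared groups alone, leaving out libraries and, chosen after seeing the data, exchanging the untreated libraries between the time courses.

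Groups came from the sample labels. Replicate numbers pair the libraries, since the study used them for its 2 time courses. The deviations of same-numbered libraries from time point means had a mean correlation of 0.511 (0.300 to 0.791, 15 pairs). At no time point were the 2 libraries duplicates (chi-square test of counts). Other pairs of libraries were not checked this way. Members and lists were chosen with earlier results of these data known. All 4 members, every set with at least 1 read, the 5 most frequent tags, the 5 arms most like the family and the marker lists are named.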

Additional observations from a re-analysis of the deposited data

Results flagged for a closer look

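Within the second time course, the library at 6 h (6h-2) stood apart in read length. Its share of family reads of 21 nt or more, 37.4%, and its share of reads that match 1 member only, 39.8%, were each farther below the other 5 libraries than Dixon's limit for 6 values. Both shares rest on the same 2843 reads. Chance gives 0.7 such values in 14 groups, and 2 were found. The groups are not independent, and every read of 21 nt or more also matches 1 member only. The 2 values thus nearly repeat each other, and no excess is read from their count.

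The changes after ECS went opposite ways in the time courses at all 5 times, which was not tested, since each time course has 1 library per time. The log2 change of family CPM was 1.35 and −0.34 at 0.5 h, 0.45 and −0.68 at 1 h, 2.00 and −0.88 at 3 h, 1.10 and −3.22 at 6 h, and 1.49 and −0.78 at 24 h, in the first and second time course. All 5 values of a time course share 1 untreated library, and 8 of 10 changed sign against the other untreated library.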

How the results depend on the processing

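The family passed no test of ECS under any alternative. With the time course as a replicate block, the log2 fold changes were, in order of time, 0.18, −0.38, 0.29, −0.98 and 0.029. The block changed no call. The sign changed with total counts at 1 h (0.0054), 3 h (−0.038) and 24 h (−0.17), without the filter at 0.5 h (−0.0088) and 24 h (−0.12), with tags of 20 nt or more at 0.5 h (−0.10) and 24 h (−0.25), and with the first 18 nt at 24 h (−0.13). The cause was not tested. Leaving out 1 library gave, in the same order, −0.39 to 1.41, −0.98 to 0.82, −0.45 to 1.54, −2.59 to 0.34 and −0.53 to 1.28. Signs changed without NT-1 at 0.5 h, 3 h and 24 h, without NT-2 at 1 h and 6 h, without 3h-1 at 3 h and without 24h-1 at 24 h.

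Between the time courses, the family turned to 0.073 with the first 18 nt. It ranged from −0.67 to 0.11 when both libraries of a time point were left out, and was above 0 without the 6 h pair. Without the time point covariate (no replicate block) it was −0.13. The difference in family share ranged from −1.13 to −0.353 percentage points without a time point, and was 0.308 against all accepted reads. The opposite side ranged from −0.00242 to −0.000143 percentage points.

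With tags of 20 nt or more, the differences were 2.97 percentage points for the first start, 38.1 for 21 nt or more, −0.130 for miR-378d and 33.2 for reads of 1 member. With the first 18 nt they were 2.25, 45.0, −0.141 and −0.150, the last because such matches are shared by construction. None passed after adjustment over 6 measures. Leaving out a time point gave 3.49 to 4.45, 36.2 to 42.7, −0.160 to −0.0889 and 32.5 to 38.3, with 5 pairs, whose smallest p is 0.0625.

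With the untreated libraries exchanged between the time courses, these differences were 2.71, 23.3, −0.122 and 18.9 percentage points, and none passed after adjustment. That none passed was fixed in advance, since the exchange reverses 1 of 6 pairs that had all gone the same way. The family share was then lower in 6 of 6 pairs (−1.19, exact permutation test, p = 0.0312, adjusted p = 0.188), and the log2 fold change was −0.84. With the block in that arrangement, no ECS call or sign changed.

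Alternatives for the 6 sets were chosen after seeing the data. Of the sets, 1 was called with DESeq2 size factors, 3 with DESeq2, total counts or no covariate, 2 without the filter, 0 with the untreated libraries exchanged, and 1 to 3 without a time point (1 without 1 h, 3 h or 24 h). They were not run on tags of 20 nt or more or on the first 18 nt. Depth limits the minor members, which had 1 to 8 reads each in 6h-2.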
